A study of Drosophila melanogaster with 90 samples.

Results

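In heads of female Drosophila melanogaster, 140 of the 9027 genes in the deposited table (1.55%) make up the set described here. On average over 2 and 3 h they were higher than in virgins after mating with either kind of male. On average over 5, 6, 8 and 12 h they were higher in females that had received Sex Peptide than in mated females that had not. These genes were chosen on measured values, and the choice did not require that a gene stay above virgins after 3 h. Expression was taken as L = log2(CPM + 1), with CPM, the count scaled to a common library size, on the column totals, and L was averaged over the repeats of a group. A gene was kept when the difference from virgins, averaged over 2 and 3 h after mating, was at least 0.4 both in wildtype-mated and in SP-null-mated females. It also had to be at least 0.3 higher in wildtype-mated than in SP-null-mated females, averaged over 5, 6, 8 and 12 h. Both early thresholds were passed by 176 genes, of which 36 did not pass the later one.

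Sex Peptide is a small protein of the seminal fluid that males pass to females at mating. It is known for raising egg laying and feeding and for lowering the readiness to mate again, and it is kept in the female on stored sperm, from which it is released over days. The largest share of named members belongs to the making of ribosomes. In this process RNA polymerase I transcribes ribosomal RNA in the nucleolus, small nucleolar ribonucleoproteins (snoRNPs) guide its chemical modification and cleavage, and assembly factors fold and join the subunits. The transcription factor Myc is known in flies as a driver of these genes and of cell growth.

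The groups were wildtype-mated females, which had mated to wildtype males, SP-null-mated females, which had mated to males without Sex Peptide, and virgins frozen alongside them. The labels give the genotype Canton-S, the tissue head, and a temperature of 25 °C with 12 h of light per day from 8 AM. Mating took place in the morning, by 11 AM at the latest, and each treatment was sampled at 10 times from 0.5 to 24 h, hourly from 1 to 6 h and also at 8 and 12 h. The whole series was repeated 3 times, as repeats A, B and C. No source used here gives their age or the number of heads in a sample.

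Of 90 samples 87 had a column, so that 27 of 30 groups held 3 libraries and 3 groups held 2 (wildtype-mated females at 2 and 3 h and virgins at 6 h, all without repeat C). Total counts ran from 15411046 to 103387056 per library. The deepest library was wildtype-mated repeat A at 24 h, beside 19719409 in repeat B and 22533145 in repeat C of that group. All 8 listed photoreceptor markers, all 6 neuronal markers and all 7 glial markers were in the table, as were 9 of 10 fat body markers, and none of them was at 0 in any library. The lists for gut, male reproductive tract and ovary had 0 genes in the table. These are bulk samples, in which fewer cells of a type and less RNA per cell cannot be told apart.

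By function, 47 members were assigned to the making of ribosomes, 13 to metabolic enzymes and 7 to regulators or signals, and 73 were given no role. Of these 73, 56 go by a CG number. No role assigned does not mean that the function is unknown, and ribosome genes may be among them. Counts of ribosome members below are counts of the 47 assigned genes. The ribosome members comprise 5 subunits of RNA polymerase I (Polr1A, Polr1B, Polr1E, Polr1F and Polr1H), 12 snoRNP and nucleolar genes, and 30 assembly factors. The snoRNP genes include fibrillarin (Fib), Nop56, nop5 and hoip of the box C/D particles, which methylate RNA, and Nop60B, NHP2 and Nop10 of the box H/ACA particles, which convert uridine to pseudouridine. Assembly factors include the helicases pit and Dbp73D, the exosome subunits Rrp42 and Rrp46 and the GTPases Ns1 and Ns3. Others are the kinase RIOK1 and the large-subunit factor eIF6. Several enzymes act on amino acids: LKRSDH breaks down lysine, Tdh threonine, and Bcat and CG15093 branched-chain amino acids, aay makes serine, and Gnmt methylates glycine. The regulators are Myc, the PGC-1 relative srl, CrebA of the secretory pathway, the sex-determination factor dsx, Cipc, whose mammalian relative binds CLOCK, the insulin-like peptide Ilp6 and the neuropeptide CNMa. Roles were assigned by hand after the members were known.

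**Figure D1:**
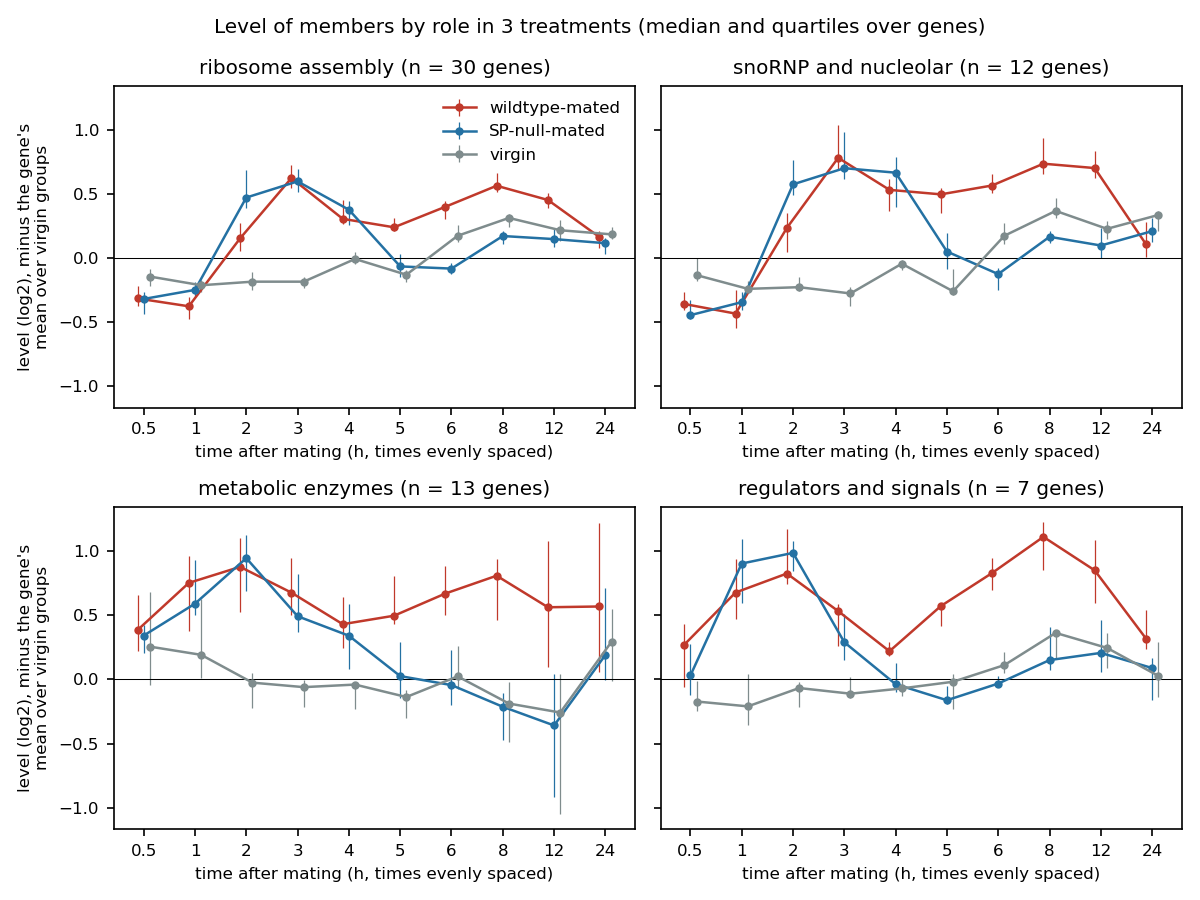
Median level (log2, each gene minus its mean over the virgin groups, vertical axis) at 10 times after mating (horizontal axis, evenly spaced) in wildtype-mated, SP-null-mated and virgin females, for 4 roles; bars are quartiles over genes. Assembly factors (upper left) and snoRNP genes (upper right) had their highest median at 3 h in wildtype-mated females, while regulators (lower right) stood at 0.68 in wildtype-mated and 0.90 in SP-null-mated females at 1 h and, in wildtype-mated females, at 1.11 at 8 h.

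The values that chose the members are given as a description. The early difference from virgins ranged from 0.40 (eIF6) to 1.64 (CG11741) in wildtype-mated females, with a median of 0.58, and from 0.41 to 1.67 (LKRSDH) in SP-null-mated females, with a median of 0.71. The later difference between the wildtype-mated and the SP-null-mated group ranged from 0.30 (CG8854) to 2.42 (asRNA:CR45046), with a median of 0.43. Metabolic enzymes had a later median of 0.74 and regulators of 0.69, against 0.56 for snoRNP genes and 0.37 for assembly factors. Just inside the later threshold were CG8854 (0.3008), Rrp42 (0.3016) and CG7182 (0.3031), and just outside it ppan (0.2983), Acsf2 (0.2982) and CG6724 (0.2962). At the early threshold in wildtype-mated females eIF6 (0.4026) was just inside and Rexo5 (0.3986) just outside.

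Members were also chosen on 2 repeats and read in the third. Without repeat A 128 genes were chosen. In repeat A their median difference at 5 to 12 h between the wildtype-mated and the SP-null-mated group was 0.417, against -0.005 over all genes. The difference was above 0 in 100% of the 128 genes and in 47.82% of all genes. Repeat B gave a median of 0.42 over 152 genes, against 0.025 over all genes, and repeat C gave 0.488 over 117 genes, against -0.046. The share above 0 was 99.34% in repeat B, against 59.39% of all genes, and 100% in repeat C, against 33.89%. Wildtype-mated repeat C had no library at 2 and 3 h. Without repeat A or B the early wildtype-mated value thus rested on a single library per time, and in repeat C it could not be read. The values are a description and were not tested. Of the 140 members 117, 134 and 108 were chosen again without repeat A, B and C. With a TMM scaling in place of column totals 151 genes passed, all 140 among them.

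At single times the members did not move as 1 block (see the heat map of differences from virgins). At 2 h their median difference from virgins was 0.349 in wildtype-mated females (2 libraries) and 0.705 in SP-null-mated females, and at 3 h it was 0.807 and 0.750. The median over genes of the difference between the mated groups was -0.324 at 2 h and 0.061 at 3 h. From 5 to 12 h the medians against virgins lay between 0.262 and 0.426 in wildtype-mated females and between -0.247 and 0.057 in SP-null-mated females, the lowest at 6 h. At 5 h 95 of 140 members were above virgins in SP-null-mated females, and 4993 of all 9027 genes were. The medians at 5 h were 0.057 over members and 0.012 over all genes, with 0.307 for snoRNP genes and 0.202 for enzymes. Low SP-null-mated values at 5 to 12 h are favoured by the selection, so these medians are a description.

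**Figure D2:**
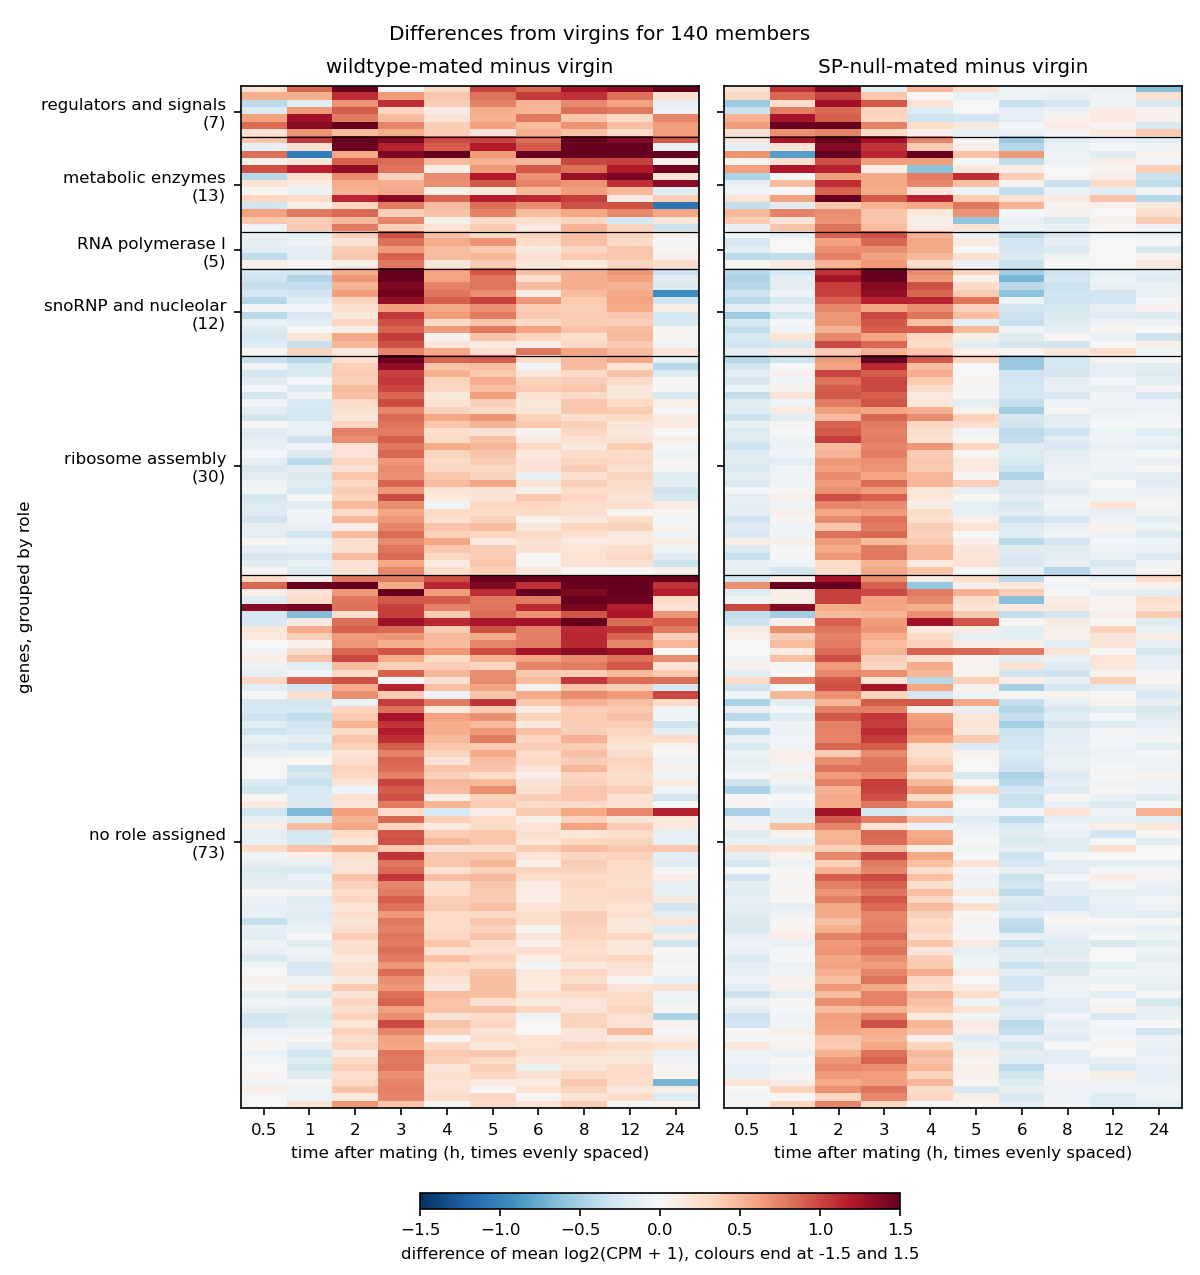
Difference of mean log2(CPM + 1) from virgins for each of 140 members (rows, grouped by role and sorted within a role by the difference between the wildtype-mated and the SP-null-mated group at 5 to 12 h) at 10 times after mating (columns), in wildtype-mated females (left) and SP-null-mated females (right). Red is above virgins and blue below; colours end at -1.5 and 1.5. The average of 2 and 3 h is above virgins in both panels by selection. At 2 and 3 h singly, 138 and 139 of 140 members were above virgins in wildtype-mated females, and 140 and 138 in SP-null-mated females. At 5 to 12 h the right panel is pale, with member medians from 0.057 at 5 h down to -0.247 at 6 h, below virgins.

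The members whose course was most alike were the ribosome genes. Over the means of the 30 groups the median Pearson r between pairs of the 47 ribosome members was 0.91. It was 0.483 among the metabolic enzymes, and 0.289 between ribosome members and the 20 enzymes, regulators and signals. Of the 73 genes with no role assigned, 54 had an r of at least 0.8 with the mean of the ribosome members, led by CG8545 (0.991), CG8939 (0.989) and CG7728 (0.983). At the other end, CG11425 (-0.122), CG3036 (-0.092), CG46303 (-0.05) and CG11741 (-0.014) followed another course. These points share libraries, and the selection itself makes members alike, so the values describe the set and were not tested. The share of all genes with an r of at least 0.8 is not given here, so the 54 genes are not set against a background.

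Values at 2, 3, 5, 6, 8 and 12 h are those the selection used, so gaps between groups at these times follow from the choice of genes and support nothing. Among the ribosome members, Nop60B (chromosome 2R, 24174877 to 24186343, plus strand; BDGP6, the annotation's dm6 build) shows the course. This gene encodes the pseudouridine synthase of the H/ACA particles, and 7 snoRNA genes lie within it. At 3 h its CPM was 97.0 and 73.8 in wildtype-mated females, 108, 88.8 and 58.02 in SP-null-mated females, and 34.6, 27.04 and 23.4 in virgins, and neither mated group overlapped the virgins. At 12 h it was 69.7, 67.1 and 68.04 in wildtype-mated females, against 39.9, 47.4 and 39.2 in SP-null-mated females and 51.1, 45.4 and 38.01 in virgins. SP-null-mated females then overlapped virgins, and wildtype-mated females did not. At 24 h the 3 wildtype-mated libraries, with 60.7, 32.6 and 29.6, spanned the range of both other groups. Genes of the C/D particles kept to this order, for example nop5 with 71.4, 64.96 and 64.55 CPM at 12 h in wildtype-mated females, against 36.2, 40.2 and 36.7 in SP-null-mated females and 45.5, 40.8 and 39.8 in virgins. Nopp140, a nucleolar chaperone of snoRNPs, had 53.3, 50.5 and 54.5 at 12 h in wildtype-mated females, 39.3, 40.9 and 38.6 in SP-null-mated females, and 46.2, 40.6 and 36.99 in virgins.

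Smaller steps at 12 h were seen in the assembly factors. Ns1, a nucleolar GTPase, had 40.7, 39.2 and 36.4 CPM in wildtype-mated females, 29.9, 33.6 and 31.3 in SP-null-mated females, and 32.9, 34.6 and 30.3 in virgins. Its relative Ns3 had 28.1, 26.9 and 29.5 in wildtype-mated females, 24.3, 22.4 and 22.2 in SP-null-mated females, and 26.8, 21.8 and 22.8 in virgins. Wildtype-mated and SP-null-mated libraries did not overlap in either gene, at a time the selection used. Surf6 had 12.2, 11.9 and 9.72 in wildtype-mated females, 6.74, 8.64 and 7.80 in SP-null-mated females, and 8.91, 8.16 and 7.81 in virgins. Nnp-1 stood at 36.5, 35.95 and 36.7 in wildtype-mated females, 28.8, 28.6 and 28.3 in SP-null-mated females, and 31.1, 31.6 and 27.2 in virgins. In both genes the wildtype-mated libraries lay above all others. The kinase gene RIOK1 had 12.5, 11.9 and 11.8 in wildtype-mated females, 9.63, 11.2 and 9.58 in SP-null-mated females, and 12.7, 10.3 and 9.46 in virgins. The U3 particle gene wcd had 12.6, 13.5 and 13.7 in wildtype-mated females, 10.9, 12.1 and 10.8 in SP-null-mated females, and 13.1, 12.2 and 10.9 in virgins. Wildtype-mated and virgin libraries thus overlapped in RIOK1 and wcd. For nclb the values were 34.9, 31.8 and 33.6 in wildtype-mated females, 24.3, 26.9 and 24.1 in SP-null-mated females, and 28.8, 26 and 25.8 in virgins. For l(3)72Dn, with 8.97, 7.67 and 9.86 in wildtype-mated females, 8.86, 9.08 and 7.42 in SP-null-mated females, and 7.38, 8.11 and 6.19 in virgins, the groups overlapped at this time.

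The later difference of the enzymes was wider. Tdh (3L, 20466944 to 20469592, plus strand), the threonine dehydrogenase, had 43.6, 51.3 and 51.1 CPM at 12 h in wildtype-mated females, 15.5, 13.7 and 16.1 in SP-null-mated females, and 17.4, 13.7 and 14.8 in virgins. LKRSDH at 8 h had 88.4, 58.7 and 87.9 in wildtype-mated females, 15.4, 14.5 and 26.1 in SP-null-mated females, and 19.1, 23.7 and 19.1 in virgins. Every wildtype-mated library exceeded every other library, as the choice of these genes for their later difference favours. The acyl-CoA synthetase gene bgm, by contrast, had 268, 209.8 and 227 at 12 h in wildtype-mated females, 318, 369 and 215 in SP-null-mated females, and 321, 245 and 282 in virgins, so its later difference came from other times.

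Some members carry other genes of the same machinery. In the annotation 8 members, among them nop5, Nop60B, Fib, Uhg1 and Uhg2, hold a snoRNA gene within their span, 5.76% of the 139 annotated members, against 90 of the 8977 annotated genes in the table (1.00%). Together they hold 32 snoRNA genes. Uhg1 and Uhg2 are host genes, named for the snoRNAs in their introns. The members lie on all major arms, 21 on 2L, 30 on 2R, 28 on 3L, 32 on 3R and 28 on X, and 45.3% overlap a gene on the other strand, against 43.9% of all annotated genes.

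Times that the selection did not use were tested with edgeR's quasi-likelihood test over all 9024 genes that passed a filter on low counts, among them all 140 members. A gene is called at a Benjamini-Hochberg adjusted p under 0.05, and differences below are log2 fold changes ± SE from that fit. The 3 comparisons at a time share libraries, so they are not independent of each other. Where libraries are left out, counts of members are given without the share of all genes called in that fit, and describe the calls alone. Nothing in the sources says how many females made up a library, and p-values measure the spread between these repeats.

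In the first hour (0.5 and 1 h averaged, 6 libraries per treatment) 4 of 7 regulators and 3 of 13 enzymes were already higher than virgins in both mated groups, and 0 of 47 ribosome members were called higher. In wildtype-mated females 11 of 140 members were higher than in virgins, where 0.831% of all genes were, and 4 were lower, where 1.06% were. In SP-null-mated females 11 were higher, against 0.820% of all genes, and 2 lower, against 1.34%. The genes called higher were Bcat, CG11741, CG3036, CG46303, Cipc, CrebA, Ilp6, LKRSDH, Myc and aay in both comparisons, with Zip71B in wildtype-mated and ZnT77C in SP-null-mated females. The median over members was -0.19 in wildtype-mated and -0.142 in SP-null-mated females, against -0.006 and -0.007 over all genes.

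Myc (X, 3373159 to 3391697, plus strand) had 88.2, 106 and 96.7 CPM in wildtype-mated females at 1 h, 95.8, 79.01 and 114 in SP-null-mated females, and 42.2, 45.5 and 32.6 in virgins. Every mated library lay above every virgin library. The difference over the first hour was 0.88 ± 0.140 in wildtype-mated females (adjusted p 3.57e-05) and 0.85 ± 0.140 in SP-null-mated females (adjusted p 8.69e-05). By 4 h Myc stood at 41.5, 59.8 and 59.1 in wildtype-mated females, 30.8, 31.1 and 49.3 in SP-null-mated females, and 44.8, 46.5 and 44.3 in virgins, and was called in neither mated group.

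Cipc (3R, 26106868 to 26130674, plus strand) had 64.3, 72.8 and 87.5 CPM at 1 h in wildtype-mated females, 91.8, 57.4 and 124 in SP-null-mated females, and 31.2, 27.8 and 26.3 in virgins. It rose over the first hour by 1.07 ± 0.129 in wildtype-mated females (adjusted p 7.30e-08) and by 1.10 ± 0.129 in SP-null-mated females (adjusted p 3.89e-08). These were the smallest adjusted p among members in both comparisons, and both calls held when any 1 repeat was left out. Cipc overlaps CG14556 on its own strand and a long noncoding RNA gene on the other, and no source used here says whether the counting used strand. The uncharacterised gene CG46303 had the largest rise, 2.05 ± 0.308 in wildtype-mated females (adjusted p 8.64e-06) and 1.85 ± 0.313 in SP-null-mated females (adjusted p 0.000137), with 0.524, 1.35 and 0.927 CPM in virgins at 1 h. CrebA rose by 0.50 ± 0.124 and 0.56 ± 0.124 (adjusted p 0.0202 and 0.00578) and Ilp6 by 0.39 ± 0.106 and 0.40 ± 0.106 (adjusted p 0.0357 and 0.0251), in wildtype-mated and SP-null-mated females in that order. Neither Ilp6 call held without any 1 of the repeats. The other 3 regulators, dsx, srl and CNMa, did not pass, at 0.17, -0.37 and 0.53 in wildtype-mated females and 0.18, -0.21 and 0.70 in SP-null-mated females.

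Of the 13 enzymes 3 passed in the first hour, the same 3 in both comparisons. Bcat, the aminotransferase of branched-chain amino acids, had 79.2, 96.8 and 106 CPM at 1 h in wildtype-mated females, 87.4, 95.5 and 108 in SP-null-mated females, and 39.3, 44.3 and 39.6 in virgins, with no overlap between mated and virgin libraries. It rose by 1.02 ± 0.199 (adjusted p 0.00114) in wildtype-mated and by 0.89 ± 0.199 (adjusted p 0.00657) in SP-null-mated females. LKRSDH (2L, 7791175 to 7795959, minus strand) rose by 0.69 ± 0.155 (adjusted p 0.00699) and 0.66 ± 0.155 (adjusted p 0.0116), and aay by 0.63 ± 0.117 (adjusted p 0.000505) and 0.56 ± 0.117 (adjusted p 0.00298), in the same order. The threonine enzyme Tdh, at -0.02 ± 0.191 in wildtype-mated females, was not called. Without any 1 repeat LKRSDH passed in neither.

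Most ribosome members lay below virgins in the first hour, few of them past the test. Of the 30 assembly factors 0 had a positive difference in wildtype-mated females and 1 had in SP-null-mated females, with medians of -0.219 and -0.176. Called lower in wildtype-mated females were pit and Mys45A, with -0.34 ± 0.0966 (adjusted p 0.0458) and -0.34 ± 0.0807 (adjusted p 0.0125), and the unassigned CG3335 and CG4554. At 1 h Mys45A had 17.8, 17.9 and 14.9 CPM in wildtype-mated females, 19.6, 18.7 and 20.9 in SP-null-mated females, and 25.1, 23.5 and 18.9 in virgins. For CG4554 the values were 12.0, 11.8 and 12.2 in wildtype-mated females, 16.7, 12.2 and 15.2 in SP-null-mated females, and 17.2, 16.4 and 13.1 in virgins. Wildtype-mated libraries lay below the virgins in both. In SP-null-mated females Polr1H was called lower, with -0.72 ± 0.162 (adjusted p 0.00647), at 0.992, 1.02 and 0.826 CPM at 1 h against 1.91, 1.53 and 1.199 in virgins. CG13185, at -0.37 ± 0.102 (adjusted p 0.0343), was the other gene called lower there. With the repeat as a block, 27 members were called in wildtype-mated females, 11 higher and 16 lower, of 279 genes in all, and 21 in SP-null-mated females, 12 higher and 9 lower, of 293. Leaving out repeat B reduced the calls to 4 members in wildtype-mated and 3 in SP-null-mated females. Without repeat A 15 and 5 were called, and without repeat C 5 and 7.

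No member separated the mated groups in the first hour. Between the wildtype-mated and the SP-null-mated group 0 members were called, and 0.00% of all genes in either direction (0.00% higher, 0.00% lower). At an unadjusted p under 0.05 there were 3 members and 267 genes, and DESeq2 called 0 of either. For Myc the 2 differences from virgins were 0.88 and 0.85, and for Cipc 1.07 and 1.10.

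**Figure D3:**
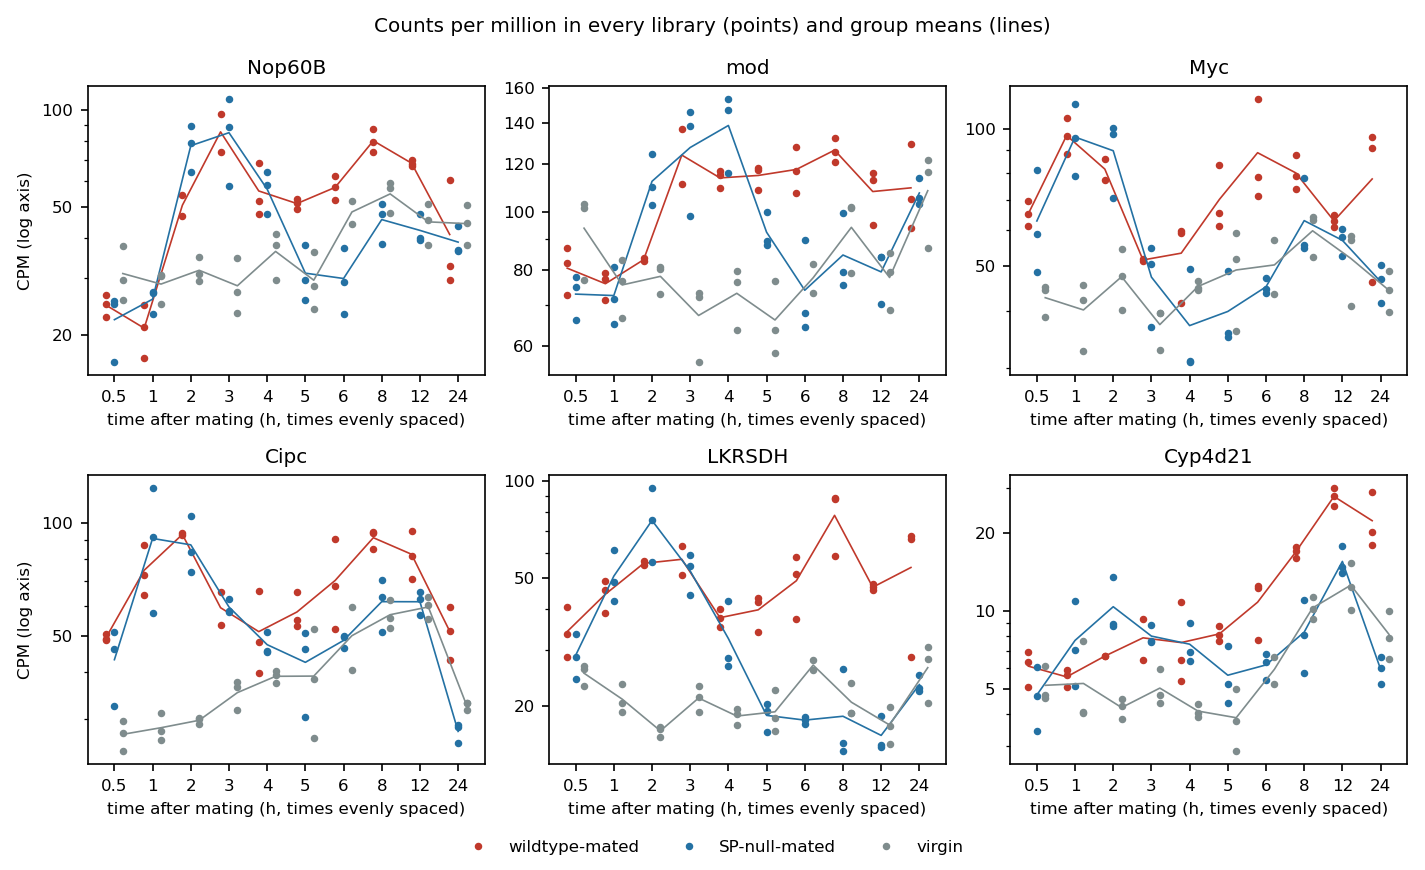
CPM on a log axis (vertical) at 10 times after mating (horizontal, evenly spaced) for 6 members, with a point per library and lines through group means, in wildtype-mated, SP-null-mated and virgin females. Myc and Cipc were high at 1 h in both mated groups, Nop60B and mod from 2 or 3 h, and Cyp4d21 stood apart in wildtype-mated females at 12 and 24 h.

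At 4 h, between the windows of the selection, 16 of 47 ribosome members were higher than virgins in SP-null-mated and 5 of 47 in wildtype-mated females, and no regulator passed the test. In wildtype-mated females 7 members were higher than virgins, where 0.155% of all genes were, and 0 were lower, where 0.199% were. In SP-null-mated females 33 were higher, against 1.26% of all genes, and 0 lower, against 0.931%. Of those 33, 16 belong to ribosome making (6 snoRNP and nucleolar genes, 7 assembly factors and 3 polymerase subunits), 1 is an enzyme and 16 have no assigned role. The 7 regulators, called in neither comparison, had median differences of 0.32 in wildtype-mated and 0.04 in SP-null-mated females. The median over members was 0.362 in wildtype-mated and 0.4 in SP-null-mated females, against 0.008 and 0.009 over all genes, and 135 and 130 members were above 0.

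The nucleolar protein gene mod (3R, 32052060 to 32054974, plus strand) had the smallest adjusted p of the members in SP-null-mated females. Its CPM at 4 h was 117, 115.2 and 109.5 in wildtype-mated females, 147, 116 and 154 in SP-null-mated females, and 76.4, 79.7 and 63.7 in virgins, so neither mated group overlapped the virgins. It was higher by 0.58 ± 0.135 in wildtype-mated females (adjusted p 0.0307) and by 0.87 ± 0.135 in SP-null-mated females (adjusted p 6.37e-05). The C/D protein gene hoip had 23.4, 22.7 and 16.4 CPM in wildtype-mated females, 31.3, 18.7 and 24.8 in SP-null-mated females, and 11.7, 11.8 and 8.44 in virgins. Its differences were 0.92 ± 0.207 (adjusted p 0.0256) in wildtype-mated and 1.18 ± 0.205 (adjusted p 0.00041) in SP-null-mated females. Polr1A, the largest subunit of RNA polymerase I, was higher by 0.52 ± 0.115 (adjusted p 0.0192) and 0.54 ± 0.115 (adjusted p 0.00422), and the helicase pit by 0.55 ± 0.133 (adjusted p 0.0349) and 0.69 ± 0.133 (adjusted p 0.00134), in the same order of groups. By library, Polr1A stood at 38.8, 41.8 and 33.96 in wildtype-mated females, 39.8, 35.6 and 40.7 in SP-null-mated females, and 25.6, 27.5 and 23.7 in virgins. For pit the values were 28.2, 30.4 and 27.2 in wildtype-mated females, 34.2, 27.5 and 32.7 in SP-null-mated females, and 19.8, 20.2 and 16.5 in virgins. All mated libraries exceeded all virgin libraries in both genes. The other genes called in wildtype-mated females were Art8, l(1)G0020 and LKRSDH.

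Further snoRNP genes passed in SP-null-mated females: Nop56 (0.94 ± 0.207), Fib (0.86 ± 0.242), NHP2 (0.81 ± 0.182) and Nop10 (0.78 ± 0.169), with adjusted p from 0.00537 to 0.0391. Nop56 had 51.7, 55.02 and 41.6 CPM in wildtype-mated females, 67.7, 45.6 and 59.04 in SP-null-mated females, and 31.2, 31.3 and 24.6 in virgins. NHP2 had 21.2, 23.9 and 17.1 in wildtype-mated females, 25.0, 20.5 and 25.6 in SP-null-mated females, and 13.8, 14.3 and 11.0 in virgins. Nop10 had 9.30, 9.21 and 8.09 in wildtype-mated females, 12.1, 7.03 and 11.1 in SP-null-mated females, and 5.32, 6.83 and 4.93 in virgins. None of the 3 overlapped with virgins in either mated group. In wildtype-mated females Nop56 was at 0.72 ± 0.207 (adjusted p 0.0975) and Fib at 0.79 ± 0.242 (adjusted p 0.117). Nop60B and nop5, which were among the highest in the selection, did not pass in either group, with 0.57 and 0.56 in wildtype-mated and 0.59 and 0.68 in SP-null-mated females. Jhe, juvenile hormone esterase, was the enzyme called in SP-null-mated females, at 7.38, 8.89 and 5.35 CPM, against 3.30, 2.40 and 2.29 in virgins (1.38 ± 0.278, adjusted p 0.00258).

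These counts depended on the spread allowed for. With the repeat as a block 25 members were called in wildtype-mated females, of 94 genes, and 61 in SP-null-mated females, of 317, all higher. Leaving out repeat A, B or C left 1, 0 and 1 in wildtype-mated and 11, 6 and 5 in SP-null-mated females, while mod, hoip and pit stayed called in SP-null-mated females each time. Between the mated groups 0 members were called at 4 h and 0.00% of all genes in either direction (0.00% higher, 0.00% lower). At an unadjusted p under 0.05 there were 11 members and 218 genes, and DESeq2 called 1 member of 4 genes. The different counts against virgins therefore do not show a difference between the mated groups.

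**Figure D4:**
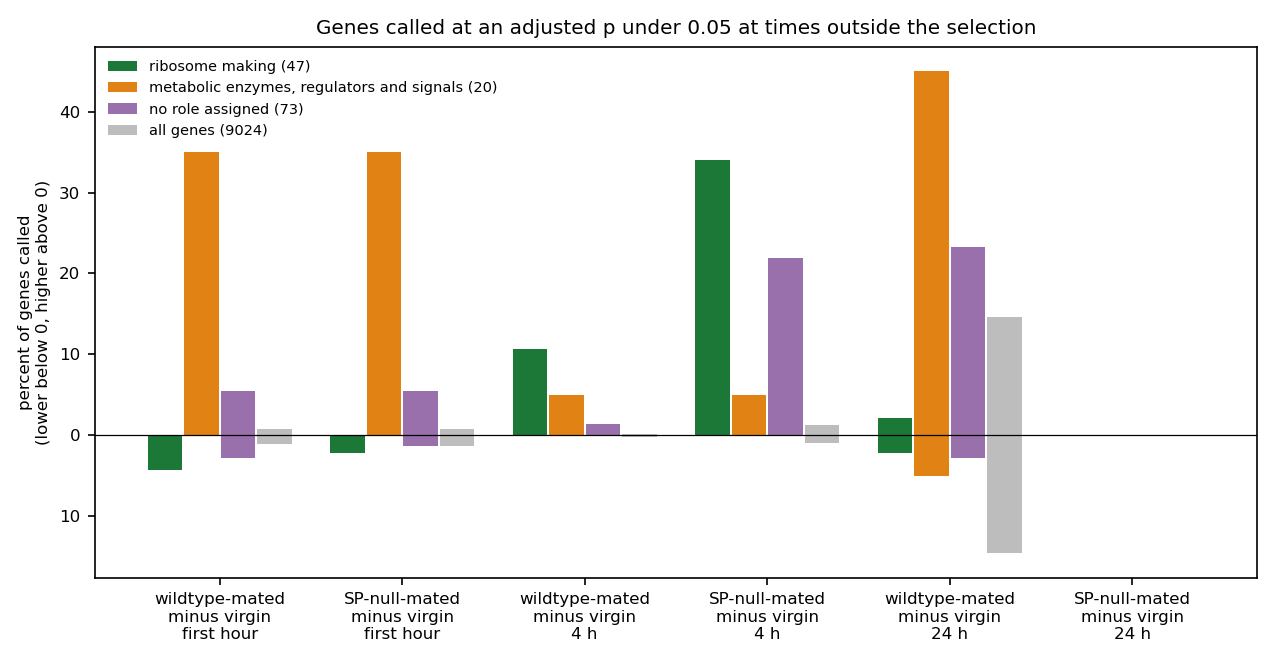
Percent of genes called at an adjusted p under 0.05 against virgins (vertical axis, higher above 0 and lower below 0) in the first hour, at 4 h and at 24 h, in wildtype-mated and SP-null-mated females, for 47 ribosome-making members, 20 enzymes, regulators and signals, 73 members with no role assigned, and all 9024 genes tested. Enzymes and regulators lead in the first hour (35% in both mated groups) and in wildtype-mated females at 24 h (45%), ribosome members at 4 h (34% in SP-null-mated females).

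At 24 h the members called higher than virgins in wildtype-mated females were 4 regulators, 5 enzymes, 17 genes with no role and, of the ribosome members, the polymerase subunit Polr1F. Against SP-null-mated females the snoRNA host Uhg2 was the ribosome member called higher. Compared with virgins, 27 members were higher, where 14.6% of all genes were, and 4 were lower (CG11417, CG14210, CG15093 and Fib), where 14.6% also were. Compared with SP-null-mated females 23 were higher, against 14.4% of all genes, and 3 were lower (CG14210, CG15093 and Fib), against 13.9%. The share of members called higher, 27 of 140, is close to the background of that time, and 0 of the 30 assembly factors were called in either comparison. Of the 7 regulators 4 were higher than in virgins (CNMa, Cipc, Ilp6 and Myc) and of the 13 enzymes 5 were (Bcat, Cyp4d21, Gnmt, LKRSDH and aay).

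Cyp4d21 (2L, 7605600 to 7607701, plus strand), a cytochrome P450 known for sex-specific expression in fly heads, had 20.2, 18.1 and 28.9 CPM in wildtype-mated females, 5.20, 6.64 and 6.01 in SP-null-mated females, and 9.98, 7.87 and 6.50 in virgins. The wildtype-mated libraries lay above all others. It was higher by 1.49 ± 0.214 than in virgins (adjusted p 6.75e-07) and by 1.89 ± 0.222 than in SP-null-mated females (adjusted p 6.79e-09). CNMa, which encodes the neuropeptide CNMamide, had 29.8, 15.01 and 33.4 CPM in wildtype-mated females, 3.90, 5.05 and 5.06 in SP-null-mated females, and 8.63, 7.87 and 7.001 in virgins. Its differences were 1.77 ± 0.3004 from virgins (adjusted p 1.56e-05) and 2.48 ± 0.321 from SP-null-mated females (adjusted p 9.07e-08). All 4 of these calls held when any 1 repeat was left out.

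Other genes rested more on single libraries. Myc was at 91.1, 46.3 and 96.0 CPM in wildtype-mated females, 47.01, 50.4 and 41.6 in SP-null-mated females, and 39.7, 48.9 and 44.3 in virgins, so that repeat B of wildtype-mated females lay within the range of both other groups. The difference was 0.83 ± 0.196 from virgins (adjusted p 0.00115) and 0.74 ± 0.195 from SP-null-mated females (adjusted p 0.00352), of which the first was lost without repeat A or C and the second without any 1 repeat. LKRSDH was likewise low in repeat B, with 66.2, 28.4 and 67.4 in wildtype-mated females, against 25.0, 22.8 and 22.3 in SP-null-mated females and 20.4, 28.1 and 30.7 in virgins (1.06 ± 0.213 from virgins, adjusted p 0.000204, lost without repeat A). Gnmt, an enzyme that uses up the methyl donor S-adenosylmethionine, had 72.5, 164 and 582 in wildtype-mated females, 27.6, 31.04 and 59.3 in SP-null-mated females, and 13.3, 31.9 and 106 in virgins. Its differences of 2.42 ± 0.733 from virgins (adjusted p 0.0104) and 2.74 ± 0.745 from SP-null-mated females (adjusted p 0.00471) were 1.25 (adjusted p 0.292) and 1.56 (adjusted p 0.163) without wildtype-mated repeat C at 24 h.

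A few members stood lower at 24 h. CG15093, a predicted 3-hydroxyisobutyrate dehydrogenase of valine breakdown, had 75.8, 56.6 and 44.7 CPM in wildtype-mated females, 114, 133 and 174 in SP-null-mated females, and 95.8, 158 and 124 in virgins, and the wildtype-mated libraries were below all others. It was lower by -1.06 ± 0.246 than in virgins (adjusted p 0.00102) and by -1.26 ± 0.247 than in SP-null-mated females (adjusted p 0.000134), both lost without repeat C, after 60.9, 89.8 and 73.3 CPM in wildtype-mated females at 12 h, against 39.97, 40.7 and 38.4 in SP-null-mated females. Fib (2R, 23072909 to 23074725, minus strand) was lower by -0.76 ± 0.240 than in virgins (adjusted p 0.0133), with 28.6, 23.8 and 8.03 in wildtype-mated females and 35.9, 42.2 and 29.2 in virgins. Without wildtype-mated repeat C at 24 h it stood at -0.40 (adjusted p 0.255), and the Fib call was also lost without repeat B or C of the whole series, as was the call of CG14210 without repeat A or C. CG14210 had 3.62, 4.46 and 2.18 CPM in wildtype-mated females, 6.50, 5.76 and 4.38 in SP-null-mated females, and 6.20, 6.21 and 5.45 in virgins.

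Wildtype-mated libraries at 24 h also differed in markers of tissues. The 9 fat body markers in the table summed to 161300, 164300 and 182400 CPM in wildtype-mated females, 94420 to 166700 in SP-null-mated females, and 78030 to 126600 in virgins, and 4 of 9 were called higher than in virgins. The 6 muscle markers summed to 2474, 2876 and 3671 in wildtype-mated females, 3473 to 4334 in SP-null-mated females, and 3940 to 5580 in virgins, and 5 of 6 were called lower. Of 7 glial markers Gs2 was called higher and repo and moody lower than in virgins. Against SP-null-mated females 1 of 9 fat body markers was higher (Yp2) and 1 lower (Lsd-1), 4 of 6 muscle markers were lower, 1 of 7 glial markers was higher and 3 lower, 2 of 6 neuronal markers were lower (nSyb and brp), and 1 of 5 hemocyte markers was higher (NimC1). No photoreceptor marker was called in either comparison. The part of these tissues in the member values was not tested. By repeat, the median member difference from virgins was 0.243 in A, -0.246 in B and 0.103 in C. Without wildtype-mated repeat C at 24 h, 20 members were called against virgins and 20 against SP-null-mated females, and without all of repeat C 16 and 16. The libraries of 24 h alone called 9 and 14. The share of all genes called in these fits is not given here, so these counts are not set against a background.

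In SP-null-mated females no member was called at this time. At 24 h 0 members differed between SP-null-mated females and virgins, where 0.0554% of all genes were higher and 0.00% lower. At an unadjusted p under 0.05 there were 3 members and 552 genes, and DESeq2 called 0 members of 4 genes. The median over members was -0.055, with 42 of 140 above 0.

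Whether the effect itself had changed between 4 and 24 h was tested as an interaction. For wildtype-mated against SP-null-mated females 13 members gained, where 4.72% of all genes did, and 1 lost, where 4.81% did. The gains were largest for Gnmt (3.10 ± 1.04, adjusted p 0.0474), CNMa (2.67 ± 0.474, adjusted p 0.000316) and Cyp4d21 (1.87 ± 0.327, adjusted p 0.000277), and the loss was CG15093 (-1.16 ± 0.346, adjusted p 0.0269). For SP-null-mated females against virgins 0 members gained, where 0.133% of genes did, and 3 lost, where 0.0665% did. These were Jhe (-1.85 ± 0.360, adjusted p 0.00736), mod (-0.84 ± 0.1901, adjusted p 0.0293) and hoip (-1.2 ± 0.287, adjusted p 0.0492). The block raised this count to 20, all lower, of 97 genes. DESeq2 called 9, a count given without the share of all genes, so it describes the calls alone. Leaving out repeat A, B or C left 0, 0 and 2. For the 47 ribosome members the differences in this last comparison were below 0 without exception.

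In virgins themselves the members varied over the sampled times. An F test over the 8 times at which no virgin library entered the selection called 106 of 140 members (75.7%), where 26.4% of all genes were called. Among these times, the selection used the mated groups at 5, 6, 8 and 12 h. Of the ribosome members 34 of 47 passed, of the enzymes 9 of 13 and of the regulators 4 of 7. The median level of members, relative to each gene's mean over virgin groups, was -0.189 at 1 h and 0.273 at 8 h, with -0.023 between them at 4 h. At 24 h, near the clock time of the first samples, it was 0.207, so the levels at the start and after a day were not alike, and clock time was not tested. Nop60B, for example, averaged 28.7 ± 3.29 CPM at 1 h and 54.8 ± 6.00 at 8 h in virgins (SD, n = 3 each). Without repeat A, B or C 65, 47 and 61 members passed, with no share over all genes given for these fits. The enzymes had a median of -0.258 at 12 h, against 0.184 over all members, and Jhe had 7.48, 6.19 and 5.18 CPM in virgins at 1 h and 0.508, 1.08 and 0.509 at 12 h (edgeR, adjusted p 1.01e-17 for time).

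Among members with no assigned role, the antisense RNA asRNA:CR45046 (3R, 21878672 to 21884101, minus strand) had the largest later difference. At 12 h it had 136, 131 and 90.0 CPM in wildtype-mated females, 18.1, 11.3 and 11.0 in SP-null-mated females, and 24.6, 15.8 and 7.04 in virgins. At 24 h, a time not used in the selection, it was higher than in virgins by 2.44 ± 0.358 (adjusted p 1.16e-06) and than in SP-null-mated females by 2.09 ± 0.352 (adjusted p 1.38e-05). It overlaps fit, a satiety peptide gene of the fat body, and CG34148 on its own strand and CG31465 and P5CDh2 on the other, so its reads may belong in part to them. At 12 h fit, which is no member, had 802, 740 and 601 CPM in wildtype-mated females, 177, 149.9 and 158 in SP-null-mated females, and 181, 191 and 136 in virgins.

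CG11741, a gene with no role assigned, was high early. It had 35.6 and 25.9 CPM at 2 h in wildtype-mated females, 26.9, 17.6 and 19.9 in SP-null-mated females, and 3.66, 3.41 and 4.08 in virgins. At 4 h it was at 8.69, 11.2 and 5.66 in wildtype-mated females, 1.64, 1.34 and 2.73 in SP-null-mated females and 2.59, 2.77 and 4.58 in virgins. At 24 h it was higher than in virgins by 1.198 ± 0.369 (adjusted p 0.0117). Srg1 had 11.8, 8.10 and 9.91 CPM at 12 h in wildtype-mated females, 1.22, 0.771 and 1.95 in SP-null-mated females, and 1.15, 1.89 and 1.40 in virgins, and overlaps CG7016 on the other strand. CG9717 and the zinc transporter gene ZnT77C were higher at 24 h in wildtype-mated females, by 1.06 ± 0.171 (adjusted p 5.81e-06) and 0.89 ± 0.140 (adjusted p 3.85e-06) against virgins, and both calls held in every fit that left out a repeat. By library ZnT77C stood at 22.5, 15.2 and 25.4 CPM in wildtype-mated females, 11.2, 11.4 and 9.49 in SP-null-mated females, and 13.3, 11.1 and 10.6 in virgins. CG9717 stood at 66.7, 50.5 and 65.4 in wildtype-mated females, 24.0, 24.5 and 27.2 in SP-null-mated females, and 32.1, 28.7 and 28.5 in virgins. In both genes the wildtype-mated libraries lay above all others.

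Lists of related pathways show how far the set reaches. Of a list of 30 ribosome biogenesis genes, all in the table, 22 passed both early thresholds and 20 are members. At 4 h 11 of the 30 were higher in SP-null-mated females than in virgins (median 0.421) and 4 in wildtype-mated females (median 0.316), against medians of 0.009 and 0.008 over all genes. Besides members these included Tif-IA, an initiation factor of RNA polymerase I, and Mybbp1A. At 24 h 2 of the 30 were higher and 2 lower than in virgins in wildtype-mated females, with a median of 0.033. Lists for the clock, amino acid transport, endoplasmic reticulum folding, glycolysis and activity-regulated genes had 0 members, and those for fatty acid synthesis, one-carbon metabolism and sugar response had 1 each (bgm, Gnmt and Srg1), as had insulin signalling and fat body feeding signals, which share Ilp6. The lists were drawn up with earlier results of these data known. The list counts are read beside the backgrounds given for each comparison.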

How the data were processed

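RNA from female heads was sequenced in stranded libraries, per the labels' protocols. The deposited values are read counts per gene made by the authors, not normalized. The submitters' processing notes name Trimmomatic 0.39, STAR 2.7.5a, HTSeq 0.11.2 and edgeR and the builds dm6 and BDGP6, without roles. Whether counting used strand is not given in the sources used here, so overlapping genes may share reads. Of 90 samples 3 were not analysed here (wildtype-mated C at 2 and 3 h, virgin C at 6 h). Depth ran from 15411046 to 103387056 counts per library, and no pair of libraries of a group agreed within sampling noise.

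The members, roles and gene lists were chosen with earlier results of these data known. Selection used log2(CPM + 1) with a pseudocount of 1. Tests used edgeR 4.0.16 in R 4.3.3 (TMM scaling, robust quasi-likelihood fit, a mean for each of 30 groups over 87 libraries), on 9024 genes past a filter (minimum count 10, minimum total 15), with Benjamini-Hochberg adjustment over them, and were first tested on simulated data. Comparisons between groups at times used by the selection were not tested. DESeq2 1.42.0, RLE scaling, no filter, the repeat as a block, the tested times alone and each repeat left out were alternatives. The series design says that the whole series was repeated 3 times, so repeats pair samples and the block is printed where it moves a count by over 1.5 times. Deviations of the same repeat at the same time correlated with a median r of 0.0784 (-0.229 to 0.335, 84 pairs, 36 over 0.1). Genes given sample by sample were taken by rule as those with the largest later and early differences, the smallest adjusted p in each tested comparison or a call against the main direction, and members of the lists. The values of Bcat and fit were added after they were seen.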

Additional observations from a re-analysis of the deposited data

Results flagged for a closer look

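Differences between groups that themselves changed between 4 and 24 h were found in edgeR's interaction test for 13 combinations of a named member and a comparison. The difference of wildtype-mated from SP-null-mated females grew for Gnmt by 3.10 (adjusted p 0.0474), CNMa by 2.67 (adjusted p 0.000316), Cyp4d21 by 1.87 (adjusted p 0.000277), Srg1 by 1.65 (adjusted p 0.0168) and Jhe by 1.23 (adjusted p 0.0158), on the log2 scale. It also grew for CG9717 by 1.04 (adjusted p 0.00580), LKRSDH by 0.99 (adjusted p 0.0302), Cipc by 0.77 (adjusted p 0.0413) and ZnT77C by 0.71 (adjusted p 0.0260). For CG15093 the change was -1.16 (adjusted p 0.0269). Between SP-null-mated females and virgins the change was -1.85 for Jhe (adjusted p 0.00736), -0.84 for mod (adjusted p 0.0293) and -1.2 for hoip (adjusted p 0.0492). Of these 13 calls, those of CNMa and Cyp4d21 held in every fit that left out a repeat or wildtype-mated repeat C at 24 h, and the others were lost in at least 1.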

How the results depend on the processing

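No named result changed sign under any alternative run. With the replicate block, 27 members were called in wildtype-mated and 21 in SP-null-mated females against virgins in the first hour, 25 and 61 at 4 h, and 20 for SP-null-mated females against virgins at 24 h compared with 4 h. The block changed no other call count by over 1.5 times, and all 80 named calls of the main fit stayed. Whether it added calls for named genes not called in the main fit is not given here. The libraries of the tested times alone gave 3 and 20 at 4 h in wildtype-mated and SP-null-mated females against virgins, 9 and 14 at 24 h in wildtype-mated females against virgins and against SP-null-mated females, and 5 and 0 for the changes between 4 and 24 h. DESeq2 called 1 member between the mated groups at 4 h and 9 for SP-null-mated females against virgins at 24 h compared with 4 h. The share of all genes is not given for the 9. DESeq2 gave no adjusted p for 53 members in SP-null-mated females in the first hour and for 6 in the change between mated groups.

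Leaving out each repeat gave 4 to 15 and 3 to 7 members in the first hour, 0 to 1 and 5 to 11 at 4 h (wildtype-mated and SP-null-mated females against virgins), 16 to 26 and 16 to 27 at 24 h (wildtype-mated females against virgins and SP-null-mated females), 2 to 10 and 0 to 2 for the changes between 4 and 24 h, and 47 to 65 for time in virgins. Without wildtype-mated repeat C at 24 h, an alternative chosen after seeing the data, the counts were 20, 20 and 6 for the 2 comparisons at 24 h and the change between mated groups. Thresholds 0.1 higher or lower chose 69 or 221 genes. A pseudocount of 0.5 chose 151, and leaving out a repeat 117 to 152. Of 80 named calls, 33 were lost with the tested times alone and 39, 37 and 44 without repeat A, B and C. Without wildtype-mated repeat C at 24 h, 14 of the calls it touched were lost and 27 stayed. RLE scaling lost 1, and with DESeq2 1 was lost and 75 stayed. Member counts from fits with libraries left out are given without the share of all genes called in the same fits, and are no result about the members. The causes were not tested.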
